A study of Mus musculus with 14 samples.

Results

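The genes described here encode the machinery that makes and packages the inhibitory transmitter GABA and proteins that mark inhibitory neurons: Gad1, Gad2, Slc32a1, Pvalb, Reln, Dlx1 and Lhx6. They were chosen by name, through the RefSeq transcript to which each array probe is assigned. No cut on measured values was used, but earlier results of these data were known. All 7 were among the 14451 genes tested, out of 20887 genes with a named probe. The 7 genes had 11 probes, of which 10 gave a signal well above background on all 14 arrays; the remaining one, a further probe for Lhx6, did so on 0 arrays and is not used.

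Gene expression was measured on single-colour Agilent arrays in the medial prefrontal cortex (mPFC) of 14 wild-type C57BL/6 mice, 1 mouse per array. Of these, 9 went through repeated social defeat stress and were sorted by behaviour into 6 susceptible and 3 resilient mice, and 5 naive mice were moved between cages in place of defeat. In every group the mPFC was punched at 4 h after the final session, from mice perfused under pentobarbital, so the anaesthetic and the perfusion are shared by all mice. The labels do not state sex or age.

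GABA is made from glutamate by glutamate decarboxylase, which exists in a cytosolic form that supplies most of the cell's GABA (GAD67, from Gad1) and a form concentrated at nerve terminals (GAD65, from Gad2). The vesicular inhibitory amino acid transporter (VGAT, from Slc32a1) loads GABA into synaptic vesicles. Cortical inhibitory interneurons are born in the ganglionic eminences, where the homeodomain transcription factor Dlx1 and, in the medial eminence, Lhx6 help to set their fate. Fast-spiking basket and chandelier cells contain the calcium buffer parvalbumin (Pvalb), and a different set of adult interneurons secretes the glycoprotein reelin (Reln).

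The promoters of the 3 GABA synthesis and packaging genes and of Reln are shown because their levels varied together from mouse to mouse, as described further on. This held for the GABA genes, with Slc32a1 on the brighter of its 2 probes, and for Reln with Gad2. Each line gives the 250 bases before 1 annotated transcription start, 5′ to 3′ on the gene's own strand, from RefSeq on build GRCm38.p6. Any GC box (GGGCGG on either strand) is in capitals. For Gad1, Gad2 and Slc32a1 that start lies inside the gene span given below, so the window is not upstream of the whole gene. Gad1 (chr2:70561879-70562128, plus strand), Gad2 (chr2:22622077-22622326, plus strand), Slc32a1 (chr2:158610508-158610757, plus strand) and Reln (chr5:22344706-22344955, minus strand) read as follows.
Gad1: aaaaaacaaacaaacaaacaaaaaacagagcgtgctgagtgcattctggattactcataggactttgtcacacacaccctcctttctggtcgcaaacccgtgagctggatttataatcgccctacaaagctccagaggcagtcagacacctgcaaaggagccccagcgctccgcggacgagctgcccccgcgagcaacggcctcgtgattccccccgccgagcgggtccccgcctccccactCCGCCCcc
Gad2: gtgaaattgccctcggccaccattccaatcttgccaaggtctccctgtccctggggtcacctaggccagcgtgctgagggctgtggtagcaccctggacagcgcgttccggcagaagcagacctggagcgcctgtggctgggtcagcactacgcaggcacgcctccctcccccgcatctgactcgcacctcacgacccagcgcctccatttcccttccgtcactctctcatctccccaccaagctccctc
Slc32a1: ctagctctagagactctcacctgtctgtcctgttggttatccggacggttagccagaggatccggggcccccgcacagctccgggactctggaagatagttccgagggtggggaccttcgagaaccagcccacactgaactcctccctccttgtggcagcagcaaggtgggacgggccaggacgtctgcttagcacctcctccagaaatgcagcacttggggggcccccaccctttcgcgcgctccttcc
Reln: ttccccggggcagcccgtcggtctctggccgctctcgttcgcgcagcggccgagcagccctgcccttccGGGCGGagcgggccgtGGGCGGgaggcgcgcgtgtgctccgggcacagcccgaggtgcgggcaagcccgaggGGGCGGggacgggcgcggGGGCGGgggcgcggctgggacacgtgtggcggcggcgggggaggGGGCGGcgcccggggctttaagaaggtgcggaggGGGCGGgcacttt
The Gad1 window held 1 GC box, the Gad2 and Slc32a1 windows held 0 and the Reln window held 6, and 32.7% of 32851 promoters of the same length hold at least 1. The GC content was 58%, 64%, 62.4% and 80% in the order printed, against a median of 52.4% over all promoters. Neither the homeodomain core TAATTA, present in 4.84% of all promoters, nor the cyclic AMP response element TGACGTCA, present in 1.55%, was found in the 250-base windows of any of the 7 genes.

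On the same build, 5 of the 7 genes lie on chromosome 2. Gad2 spans chr2:22621015-22693877, Lhx6 chr2:36081950-36105992, Gad1 chr2:70561303-70602014, Dlx1 chr2:71528113-71533981 and Slc32a1 chr2:158607260-158615747. Reln spans chr5:21884454-22344705 and Pvalb chr15:78191112-78206400. The position of each probe within its gene is not given in the sources used here, and the probe sequences are not used here.

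All levels below are log2 signal minus the array's own 75th percentile, so a level of 0 is as bright as that percentile and a level of 1 is 2-fold brighter; a level belongs to its probe and is not compared between genes. Arrays sat on 3 slides: slide 1 held susceptible 1 and 2, resilient 1 and 2 and naive 1; slide 2 held susceptible 3 and 4, resilient 3 and naive 2 and 3; slide 3 held susceptible 5 and 6 and naive 4 and 5 and was scanned on a second day. Within each slide the defeated mice filled the second row and the naive mice the first, so an effect of row and one of defeat cannot be told apart. In log2 units the 75th percentile itself ran from 7.69 to 9.24 on susceptible, 7.96 to 8.17 on resilient and 7.25 to 8.64 on naive arrays, with both slide-3 groups at the bright end. Brightness also went with defeat: on slide 1 it was 7.83 to 8.16 on susceptible and 7.96 and 8.17 on resilient arrays against 7.31 on the naive array, on slide 2 it was 7.69 and 7.77 on susceptible and 7.97 on the resilient array against 7.25 and 7.36 on naive arrays, and on slide 3 the groups overlapped. Between 48.0% and 65.4% of spots per array were well above background, and 0 were saturated. Groups were compared with limma over all 14451 genes, without a block and with slide as a block, and a gene was called at a Benjamini-Hochberg adjusted p under 0.05.

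The 3 genes of GABA synthesis and packaging were higher on average in susceptible and in resilient mice than in naive mice, Slc32a1 on the brighter of its 2 probes only, and none of the 7 genes was called in any comparison without a block. In susceptible against naive mice 6 of 7 were higher on average, where 53.2% of all genes were higher. Lhx6 was the exception, on its brighter probe only. The count called was 0 of 7 without a block, where 2.6% of all genes were called, and 1 of 7 with slide as a block, where 15.3% were called; that gene was Gad1. At an unadjusted p under 0.05 without a block, 2 of 7 passed, Gad1 and Slc32a1, where 24% of all genes did; with slide as a block 2 of 7 did, Gad1 and Lhx6, against 34.3%. The susceptible and naive groups overlapped for all 7 genes, while 4.13% of all genes had groups that did not overlap. Because the samples are bulk tissue, fewer cells of a type and less RNA per cell cannot be told apart for any of these genes.

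**Figure D1:**
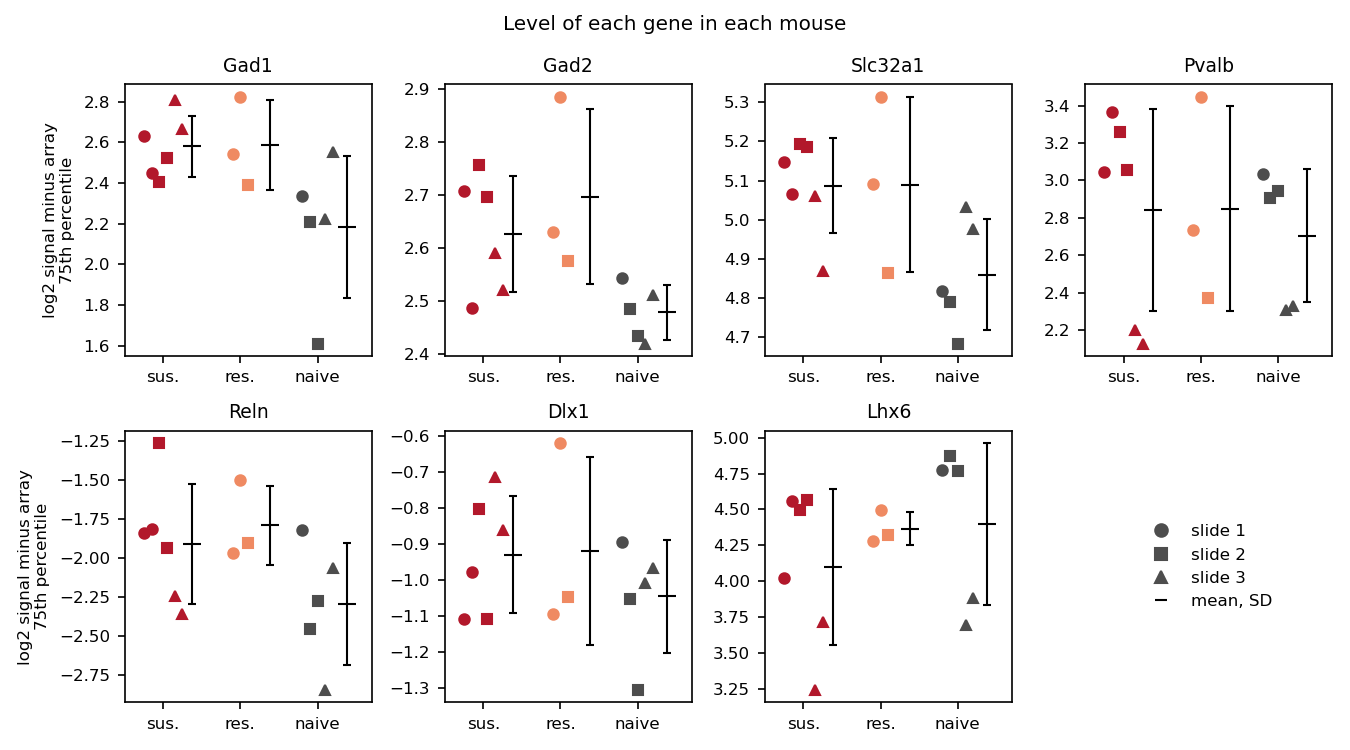
Level of each of the 7 genes in each mouse, as log2 signal minus the array's 75th percentile (each panel has its own y axis), for susceptible (sus.), resilient (res.) and naive mice. Points are mice, the shape gives the slide, and the bar to the right of each group is the mean with its SD (n = 6, 3 and 5); for Pvalb and Lhx6 the slide-3 mice lie below every mouse of slides 1 and 2, and for Gad1 naive 3 lies lowest at 1.61.

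Gad1 gave the largest susceptible-minus-naive difference of the 7 in both fits. Its levels in the 6 susceptible mice ran from 2.40 through a median of 2.58 to 2.81, in the resilient mice they were 2.54, 2.82 and 2.39, and in naive mice 1 to 5 they were 2.34, 2.21, 1.61, 2.22 and 2.55. All 6 susceptible and all 3 resilient mice lay above the naive mean, but naive 5 reached into both groups and naive 3 stood well below the rest. The means were 2.58 ± 0.15 in susceptible and 2.19 ± 0.35 in naive mice (SD, n = 6 and 5), a difference of 0.40 ± 0.15 (SE; 1.31-fold; limma adjusted p = 0.129). With slide as a block the difference was 0.39 ± 0.12 and passed the threshold (limma adjusted p = 0.0433). Within slides 1, 2 and 3 it was 0.21, 0.56 and 0.35, and in each slide every susceptible mouse was above every naive mouse. The blocked call held in 5 of the 14 fits that left out 1 mouse, with adjusted p from 0.0409 to 0.107; leaving out naive 1, 3 or 4, susceptible 1, 3, 4 or 5, or resilient 1 or 3 ended it.

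Gad2 showed a smaller difference of the same sign. Susceptible mice had a lowest level of 2.49, a median of 2.64 and a highest level of 2.76; resilient mice 1 to 3 had 2.63, 2.89 and 2.58; naive mice 1 to 5 had 2.54, 2.49, 2.43, 2.42 and 2.51. The naive mice were packed within a narrow band, all 3 resilient mice lay above it, and 4 of 6 susceptible mice did. The susceptible-minus-naive difference was 0.15 ± 0.09 (SE; 1.11-fold; limma adjusted p = 0.305) and 0.14 ± 0.08 with slide as a block (adjusted p = 0.247). Within slides 1, 2 and 3 it was 0.053, 0.27 and 0.090.

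Slc32a1 was read by a bright and a dim probe, and the bright one stands for the gene. On it the susceptible mice ran from 4.87 through a median of 5.11 to 5.19, the resilient mice had 5.09, 5.31 and 4.86, and the naive mice had 4.82, 4.79, 4.68, 5.03 and 4.98. All but 1 susceptible mouse, susceptible 6, lay above every naive mouse. The difference between susceptible and naive mice was 0.23 ± 0.10 (SE; 1.17-fold; limma adjusted p = 0.196) without a block and 0.22 ± 0.10 with slide as a block (adjusted p = 0.147). By slide it was 0.29, 0.45 and -0.040, so the groups parted on slides 1 and 2 and not on slide 3.

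Pvalb, read here on its brighter probe, varied more between slides than between groups. Its levels ran from 2.13 through a median of 3.05 to 3.37 in susceptible mice, were 2.73, 3.45 and 2.37 in resilient mice, and were 3.04, 2.91, 2.95, 2.31 and 2.33 in naive mice 1 to 5. The 4 mice of slide 3, susceptible 5 and 6 and naive 4 and 5, held the 4 lowest levels, and resilient 3 from slide 2 came next. Susceptible minus naive was 0.14 ± 0.26 (SE; 95% interval -0.43 to 0.70; limma adjusted p = 0.786), and with slide as a block it was 0.052 ± 0.144 (-0.26 to 0.36; adjusted p = 0.826). On slides 1 and 2 both susceptible mice were above the naive ones, with differences of 0.17 and 0.23, and on slide 3 both were below, with a difference of -0.15.

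Reln, read by 1 dim probe, had the widest spread among naive mice after Lhx6. Its level was -2.36 at the lowest, -1.89 at the median and -1.26 at the highest susceptible mouse, -1.97, -1.50 and -1.91 in the resilient mice, and -1.82, -2.46, -2.27, -2.85 and -2.07 in naive mice 1 to 5. In these values 5 of 6 susceptible and 3 of 3 resilient mice exceeded the naive mean of -2.29, and naive 1 was above the susceptible median. The susceptible-minus-naive difference was 0.38 ± 0.20 (SE; 1.31-fold; limma adjusted p = 0.264), and 0.34 ± 0.18 with slide as a block (adjusted p = 0.187). It rested mostly on slide 2, where it was 0.77, against -0.0051 on slide 1 and 0.15 on slide 3.

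Dlx1, which in adult cortex stays expressed in interneurons, showed no common sign across slides. Susceptible mice had levels from -1.11 through a median of -0.92 to -0.71, resilient mice -1.09, -0.62 and -1.05, and naive mice -0.89, -1.05, -1.30, -1.01 and -0.96. The groups overlapped, with 3 of 6 susceptible mice and 1 of 3 resilient mice above every naive mouse, naive 3 lowest and resilient 2 highest. Susceptible minus naive was 0.12 ± 0.12 (SE; limma adjusted p = 0.569; 0.470 with slide as a block), and the within-slide values were -0.15, 0.22 and 0.20.

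Lhx6 marks interneurons of the medial ganglionic eminence, including the parvalbumin and somatostatin cells. With the brightest probe standing for each gene, Lhx6 was the only one of the 7 with a lower mean in susceptible than in naive mice. On its brighter probe susceptible mice ran from 3.24 through a median of 4.26 to 4.56, resilient mice had 4.28, 4.50 and 4.32, and naive mice 1 to 5 had 4.77, 4.87, 4.77, 3.69 and 3.88. As for Pvalb, the 4 slide-3 mice were the lowest of the 14, and in the susceptible and naive groups the spread was larger than the difference between them. Susceptible minus naive was -0.30 ± 0.27 (SE; limma adjusted p = 0.533), and with slide as a block -0.35 ± 0.12 (adjusted p = 0.0571). Within slides 1, 2 and 3 it was -0.48, -0.29 and -0.31, with no overlap between the groups on slides 1 and 2. With array brightness as a covariate, an alternative added after the data were seen, the difference was 0.033. In that fit 0 of 7 genes were called, where 1463 of all 14451 genes were. The susceptible-minus-naive difference in it was 0.29 for Gad1, 0.16 for Gad2, 0.21 for Slc32a1, 0.39 for Pvalb, 0.52 for Reln and 0.070 for Dlx1.

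**Figure D2:**
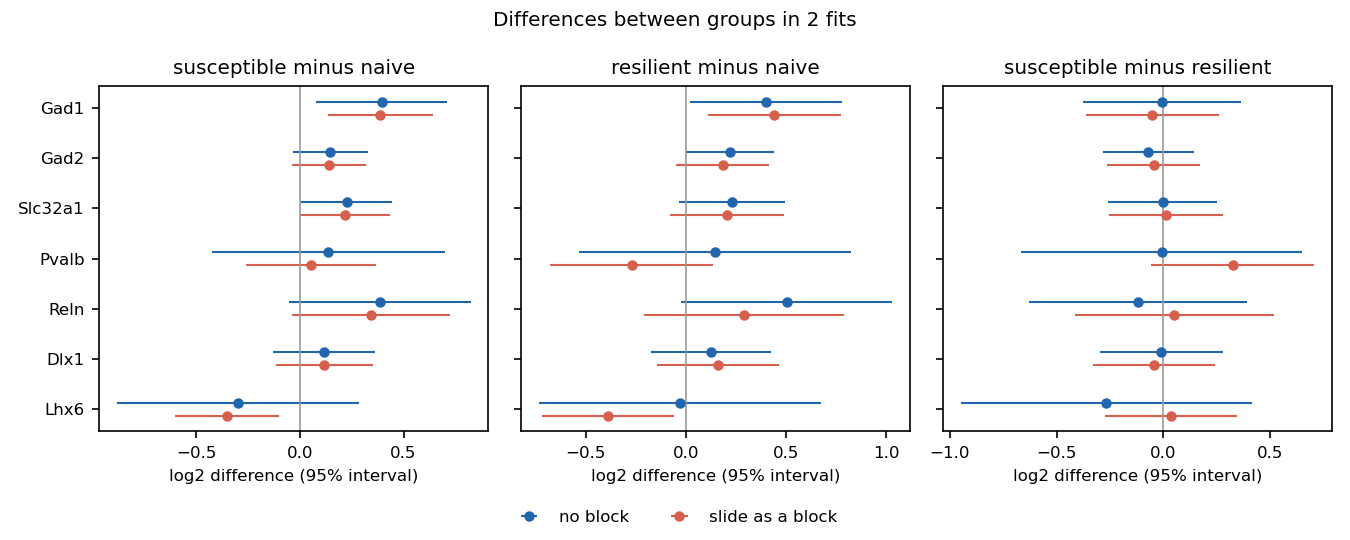
Log2 differences of the 7 genes in the 3 comparisons, with 95% intervals from limma, without a block (blue) and with slide as a block (red). The Gad1 intervals against naive lie above 0 in both fits, and the Lhx6 intervals against naive lie below 0 only with slide as a block. The intervals of susceptible minus resilient cover 0 for all 7 genes. Slc32a1, Pvalb and Lhx6 are read on their brighter probes only.

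In resilient against naive mice, which share the naive mice with the comparison above, 6 of 7 genes were again higher on average (53.1% of all genes were), and 0 of 7 were called without a block or with slide as a block, where 0.145% and 3.54% of all genes were called. Only Gad2 had groups that did not overlap, 1 of 7 against 14.7% of all genes. Gad1 was 0.40 ± 0.18 higher (SE; 1.32-fold; limma adjusted p = 0.227) and 0.44 ± 0.15 higher with slide as a block (adjusted p = 0.0999); at an unadjusted p under 0.05 without a block it was the 1 gene of 7 to pass, where 20.3% of all genes did, and with slide as a block Gad1 and Lhx6 passed, 2 of 7 against 26.7%. The differences of Gad2, Slc32a1 and Dlx1 were 0.22 ± 0.10, 0.23 ± 0.12 and 0.13 ± 0.14 (SE; limma adjusted p = 0.250, 0.310 and 0.657). For Reln the difference was 0.50 ± 0.25 without a block and 0.29 ± 0.23 with it (adjusted p = 0.268 and 0.436).

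The resilient values of Pvalb and Lhx6 depended on slide, since no resilient mouse was on slide 3. Pvalb was 0.14 ± 0.32 without a block and -0.27 ± 0.19 with slide as a block (SE), from 0.055 on slide 1 and -0.56 on slide 2, where the only resilient mouse had the level of 2.37. On its brighter probe Lhx6 was -0.031 ± 0.329 without a block and -0.39 ± 0.15 with slide as a block (limma adjusted p = 0.969 and 0.127). On slides 1 and 2 every resilient mouse was below every naive mouse on that probe, with differences of -0.39 and -0.50. The dimmer Lhx6 probe did not show this, as given further on.

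Susceptible and resilient mice were not separated by any of the 7 genes. None was higher on average in susceptible mice without a block, where 52.8% of all genes were, and the groups overlapped for all 7 (for 0.63% of all genes they did not). The count called was 0 of 7 and 0% of all genes in both limma fits; at an unadjusted p under 0.05 0 of 7 passed in both fits, where 0.754% of all genes (109) passed without a block and 1.94% (280) with slide as a block. The order of the group means was resilient, susceptible, naive for 6 genes and naive, resilient, susceptible for Lhx6, and the neighbours susceptible and resilient did not differ beyond their spread for any gene. The differences lay between -0.27 for Lhx6 and -0.0033 for Slc32a1. Their 95% intervals were -0.37 to 0.37 for Gad1, -0.28 to 0.14 for Gad2, -0.26 to 0.25 for Slc32a1 and -0.30 to 0.28 for Dlx1, and wider for Pvalb (-0.67 to 0.65), Reln (-0.63 to 0.39) and Lhx6 (-0.95 to 0.42), so differences of those sizes could not be told from 0 with 6 and 3 mice.

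Slide 3 differed from slides 1 and 2 most for the interneuron subclass genes. The mean over its 4 mice minus the mean over the other 10 was -0.88 for Lhx6, -0.78 for Pvalb and -0.50 for Reln. For the GABA genes the same difference was 0.17 (Gad1), -0.11 (Gad2) and -0.031 (Slc32a1), and for Dlx1 it was 0.11. Over all genes it had a median of 0.036, with 5% of genes under -0.67 and 5% over 0.63. The brighter Pvalb and Lhx6 probes lay beyond that lower bound, and Reln did not. On the dimmer Pvalb and Lhx6 probes the slide-3 mice overlapped with the other mice, as given further on. Scan day, slide and array brightness all changed together here and cannot be told apart.

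Across mice the GABA synthesis and packaging genes moved together, with Slc32a1 read on its brighter probe. The dimmer Slc32a1 probe had r = 0.0056 with the brighter one, so the Slc32a1 correlations below belong to the brighter probe. Over the 14 mice Gad2 and Slc32a1 had a Pearson r of 0.790 and a Spearman rho of 0.780 (two-sided permutation tests, adjusted over 21 pairs, p = 0.0125 and 0.0194); r was 0.647 without the 2 mice farthest from the Gad2 median. On levels minus the slide mean r was 0.819 (permutation adjusted p = 0.0069), and within the 10 mice of slides 1 and 2 it was 0.879. The high and low ends of this relation were resilient 2, highest for both genes, and naive 3, lowest for Slc32a1.

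Gad1 followed both genes. With Slc32a1 its r was 0.683 and rho 0.609 over the 14 mice (permutation adjusted p = 0.0227 and 0.0825), and 0.686 on levels minus the slide mean (adjusted p = 0.0311). With Gad2 r was 0.597 and rho 0.626 (adjusted p = 0.0765 and 0.0825), and 0.796 on levels minus the slide mean (adjusted p = 0.0069). Without naive 3 and resilient 2 the 2 pooled correlations fell to 0.359 and 0.382, so they rested largely on those mice; within slides 1 and 2, which hold both of them, they were 0.840 and 0.767. Since these are the same mice that are compared by group above, the group differences are part of these correlations, as are the array and slide that the genes share.

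With Reln, Gad1 had r = 0.330 and Slc32a1 r = 0.529 over the 14 mice, neither of which passed (permutation adjusted p = 0.304 and 0.136; 0.0727 and 0.0818 on levels minus the slide mean). Reln followed Gad2 with r = 0.769 and rho = 0.701 (permutation adjusted p = 0.0125 and 0.0482), r = 0.619 without resilient 2 and susceptible 3, and r = 0.712 on levels minus the slide mean. Dlx1 followed Gad1 with r = 0.705 and rho = 0.490 (permutation adjusted p = 0.0227 and 0.161). Without naive 3 and resilient 2 this r fell to 0.339, so it rested largely on those mice, as the Gad1 pairs above did. On levels minus the slide mean Dlx1 passed with Gad1 (r = 0.634), Gad2 (0.677) and Reln (0.659; permutation adjusted p = 0.0449, 0.0311 and 0.0371). Within slides 1 and 2 none of these 3 pairs passed (permutation adjusted p = 0.144, 0.0927 and 0.0514). On the brighter Pvalb and Lhx6 probes the slide-3 mice formed a separate low cluster, so no correlation is given over all 14 mice. Within the 10 mice of slides 1 and 2 the Pvalb and Lhx6 levels had r = 0.178 and rho = 0.0061 (permutation adjusted p = 0.655 and 1). In that set the brighter Lhx6 probe ran opposite to the GABA genes, with r = -0.577 against Gad1, -0.550 against Slc32a1 and -0.489 against Gad2. None of these passed (permutation adjusted p from 0.160 to 0.203). The dimmer Lhx6 probe had r = -0.404 with the brighter one over the 14 arrays, so this sign belongs to the brighter probe. Correlations of the dimmer probe with the GABA genes were not tested. The windows printed above held GC boxes for Gad1 and Reln and not for Gad2 and Slc32a1, the pair with the highest correlation over the 14 mice. Only 32.7% of all promoters of that length hold a GC box, and a relation between GC boxes and correlation was not tested. In all, 7 of the 21 pairs passed on levels minus the slide mean and 2 within slides 1 and 2, both between Slc32a1 and a Gad gene. The share of all gene pairs that would pass was not computed, so these counts do not set the 7 genes apart from other genes. Genes outside the lists reached higher r with single members, as given further on.

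**Figure D3:**
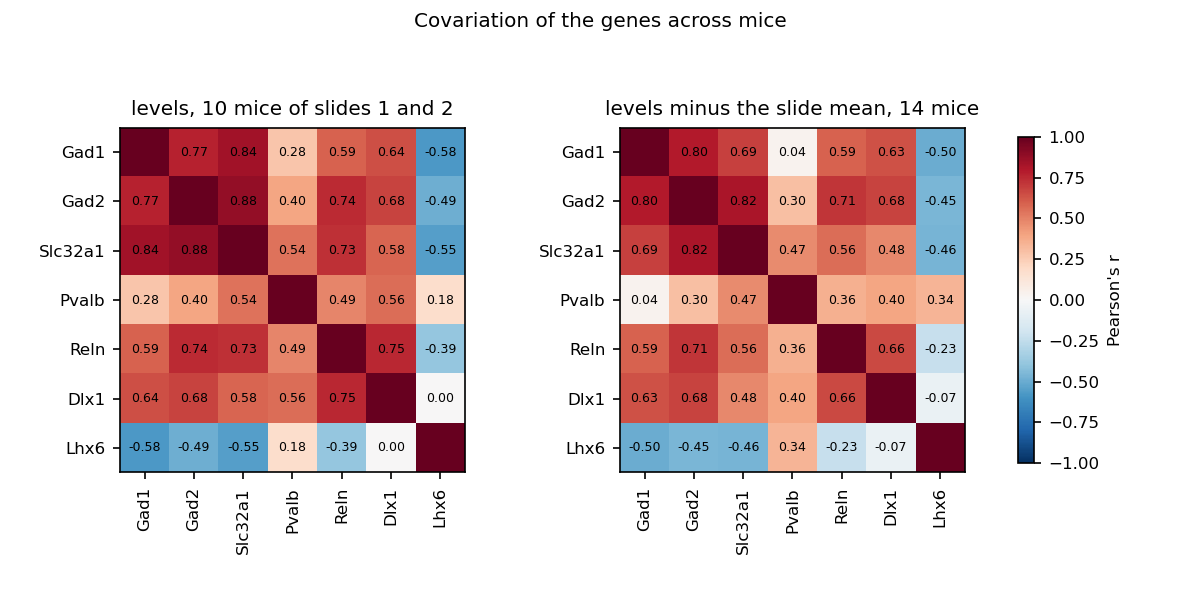
Pearson's r between the levels of each pair of the 7 genes, over the 10 mice of slides 1 and 2 (left) and over all 14 mice after subtracting the slide mean (right); colour runs from -1 (blue) to 1 (red). The block of Gad1, Gad2 and Slc32a1 is above 0.68 in both panels, and Lhx6 is below -0.4 against these 3 genes in both. Slc32a1, Pvalb and Lhx6 are read on their brighter probes only.

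The 3 genes with a second probe above background gave different answers about whether the probe matters. The brighter and dimmer Pvalb probes followed each other over the 14 arrays (r = 0.852), and the dimmer one had levels from -0.47 to 0.76 in susceptible, -0.57 to 0.74 in resilient and -0.25 to 0.39 in naive mice, with a susceptible-minus-naive difference of 0.11 ± 0.25 (SE). On the dimmer Pvalb probe resilient 3, from slide 2, was lowest at -0.57. Susceptible 5, from slide 3, lay at -0.10, above susceptible 4 at -0.17, so the slide-3 mice were not a separate low cluster on it. The 2 Slc32a1 probes did not follow each other (r = 0.0056). The dimmer one read -2.61 to -1.35 in susceptible, -2.64 to -1.91 in resilient and -2.44 to -1.32 in naive mice, a susceptible-minus-naive difference of -0.042 ± 0.25 and a resilient-minus-naive difference of -0.45 ± 0.31 (SE; limma adjusted p = 0.944 and 0.470 over 29811 probes).

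For Lhx6 the 2 probes ran in opposite directions (r = -0.404). The dimmer Lhx6 probe read from -1.35 through a median of -0.94 to -0.89 in susceptible mice, -1.06, -0.997 and -1.43 in resilient mice, and -1.26, -1.53, -1.18, -0.81 and -1.13 in naive mice. On it 5 of 6 susceptible mice exceeded the naive mean of -1.18, and the slide-3 mice were spread through the range. Its susceptible-minus-naive difference was 0.17 ± 0.14 (SE; limma adjusted p = 0.50), and 0.16 ± 0.13 with slide as a block (adjusted p = 0.417), so the lower Lhx6 level in susceptible mice was seen on the brighter probe only. Resilient minus naive on the dimmer probe was 0.018 ± 0.166 (SE) without a block and -0.0020 ± 0.170 with slide as a block. A lower resilient level of the size on the brighter probe was thus not seen on it. Over the 14 arrays the brighter probe had r above 0.95 with 44 genes, the highest being Oprm1 (0.994) and Pdcd4 (0.992), whereas the other 9 probes of the 7 genes had between 0 and 3 such genes each. Its relation to the Lhx6 transcript could not be checked further here.

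**Figure D4:**
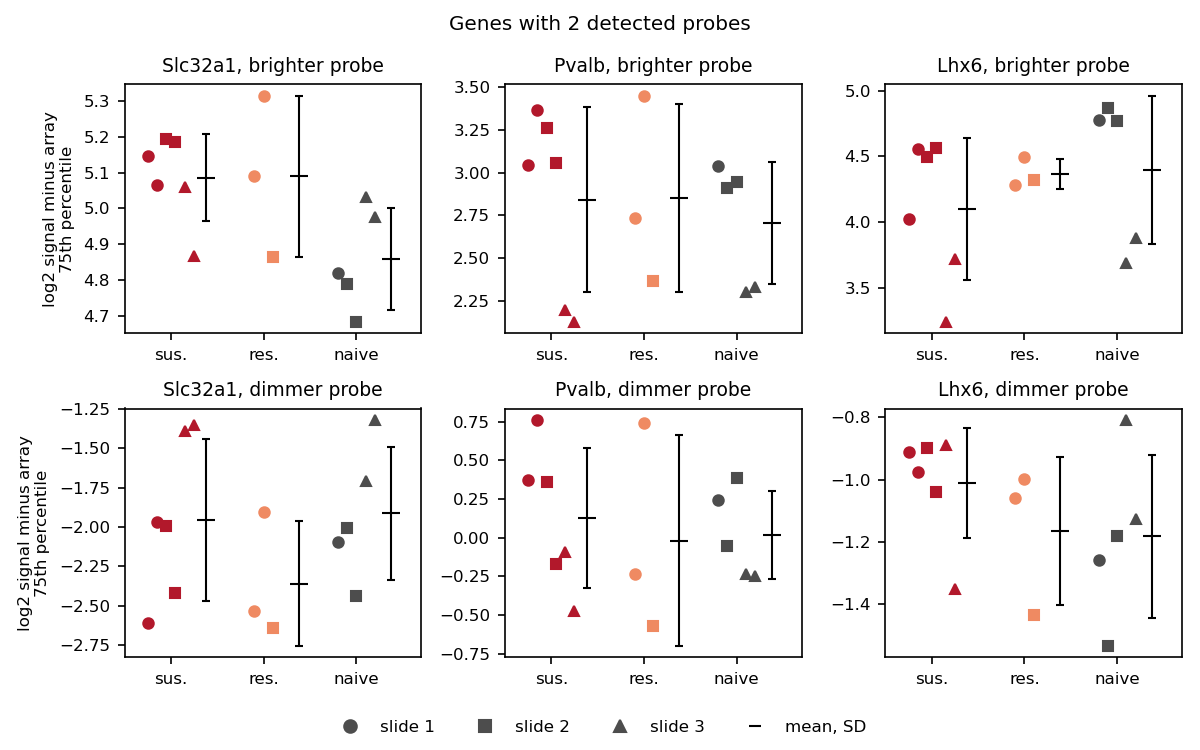
Levels of the brighter (top) and dimmer (bottom) probe of Slc32a1, Pvalb and Lhx6 in each mouse, as log2 signal minus the array's 75th percentile, for susceptible (sus.), resilient (res.) and naive mice; shapes give the slide and bars the mean with its SD. The slide-3 mice are lowest on the brighter probe of Pvalb and of Lhx6. On neither dimmer probe are they set apart as the lowest.

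The genes whose pattern over the 14 arrays was most like each of the 7, by Pearson's r on levels minus the slide mean among 14444 other genes, were as follows, given as a description. For the GABA genes they were Ccdc117 (0.971) and Hnrnpk (0.951) with Gad1, Atxn3 (0.959) and Dok4 (0.923) with Gad2, and Usp29 (0.981) and Lmod3 (0.953) with Slc32a1. For the marker genes they were Cadps2 (0.891) and Spatc1 (0.886) with Pvalb, and Det1 (0.923) and Spx (0.914) with Reln. For the transcription factors they were Slc30a9 (0.929) and Tox4 (0.906) with Dlx1, and Oprm1 (0.979) and Snap23 (0.977) with Lhx6. No gene of the GABA or interneuron lists was among these 14, and all points share the array, its slide and its scaling.

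Among 13 genes of GABA breakdown, glutamate supply and transport, 0 were called without a block in susceptible against naive mice, and with slide as a block 0 rose and 2 fell. That is near the 15.3% of all genes called in the blocked fit. One of them was Abat, the transaminase that degrades GABA, at 4.95 ± 0.21 in susceptible, 4.85 ± 0.04 in resilient and 5.30 ± 0.14 in naive mice (SD), a blocked difference of -0.32 ± 0.08 (SE; limma adjusted p = 0.0230; 0.0927 without a block). The other was Slc38a3, a glutamine transporter of astrocytes, with -0.57 ± 0.10 (adjusted p = 0.00849; 0.0651 without a block), which kept its blocked call in all 14 fits that left out 1 mouse. The median of this list was 0.027, against 0.15 for the 7 genes and 0.019 for all genes.

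Among 16 peptide, receptor and calcium-binding markers of other interneuron subclasses, 14 were tested and had a median of 0.22; 0 were called without a block, and with slide as a block, where 15.3% of all genes were called, 3 rose and 0 fell. These were Lamp5, a marker of neurogliaform cells (0.62 ± 0.15, SE; limma adjusted p = 0.0208), Npy, neuropeptide Y (0.56 ± 0.16; 0.0334), and Sst, somatostatin (0.54 ± 0.17; 0.0485). Their adjusted p without a block was 0.0980, 0.0845 and 0.0757, and the blocked call held in 13, 8 and 4 of 14 fits that left out 1 mouse. Sst had a level of 4.98 ± 0.23 in susceptible, 4.88 ± 0.47 in resilient and 4.43 ± 0.23 in naive mice (SD).

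Of 19 other interneuron transcription factors, 15 were tested, with a median of 0.059, and with slide as a block, where 15.3% of all genes were called, 0 rose and 2 fell. One of these was Zeb2, which directs interneuron migration, with -0.44 ± 0.12 (SE; limma adjusted p = 0.0345). Without a block its adjusted p was 0.0997, and 0 of the list were called. Leaving out 1 mouse kept the blocked call of Zeb2 in 5 of 14 fits. Nkx2-1 and Lhx8 were above background on 0 arrays.

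Genes that mark parvalbumin cells had a median close to that of all genes (0.019). Of 13, 11 were tested, with a median of 0.035. In either fit 0 were called, where 2.6% of all genes were called without a block and 15.3% with slide as a block. The 2 with the smallest p in susceptible against naive mice were Gria4, an AMPA receptor subunit (0.24 ± 0.12, SE; limma adjusted p = 0.222), and Pthlh (-0.37 ± 0.24; adjusted p = 0.356). The probes of Erbb4 and Syt2 were above background on 0 arrays.

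Of 11 receptors and adaptors that carry the reelin signal, all tested, 0 were called without a block, and with slide as a block, where 15.3% of all genes were called, 1 rose and 1 fell. Dab1, the adaptor phosphorylated when reelin binds its receptors, fell by 0.49 (SE 0.14; limma adjusted p = 0.0324), and Crkl, an adaptor that binds phosphorylated Dab1, rose by 0.67 (SE 0.15; adjusted p = 0.0193). In resilient against naive mice with slide as a block the same values were -0.67 ± 0.18 for Dab1 (adjusted p = 0.0526) and 0.84 ± 0.20 for Crkl (adjusted p = 0.0421). Without a block the adjusted p in susceptible against naive mice was 0.0664 for Dab1 and 0.0964 for Crkl. The blocked call in susceptible against naive mice held in 6 and 13 of 14 fits that left out 1 mouse for Dab1 and Crkl. The median of the list was 0.017, against 0.019 for all genes.

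At the inhibitory postsynapse, 10 genes had a median of 0.12 and 0 were called in either fit. Of all genes, 2.6% were called without a block and 15.3% with slide as a block. The 2 with the smallest p were Slitrk3, a synaptic adhesion protein (0.35 ± 0.14, SE; limma adjusted p = 0.157), and Lhfpl4, which anchors GABA-A receptors to the neuroligin complex (0.23 ± 0.10; adjusted p = 0.190).

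**Figure D5:**
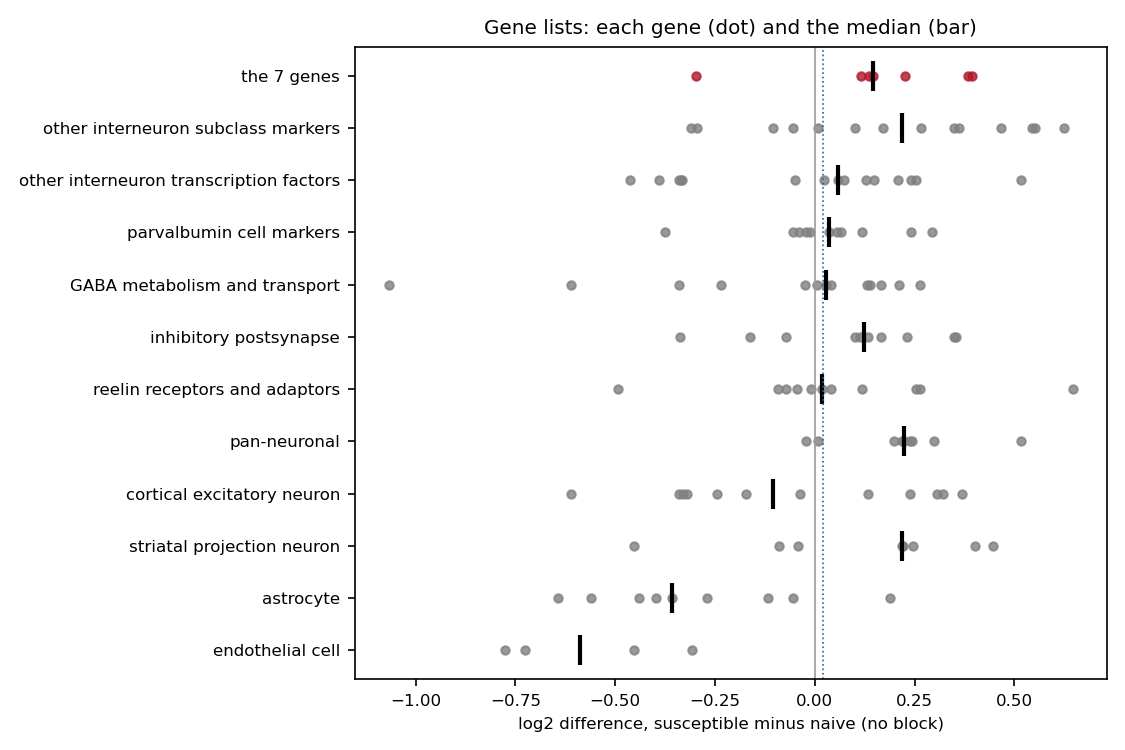
Log2 difference of susceptible minus naive mice, without a block, for the 7 genes (red) and each gene of 6 pathway lists and 5 cell type marker lists (grey); dots are genes, black bars list medians, the grey line 0 and the dotted blue line the median of all genes tested (0.019). The 7 genes have a median of 0.15, next to 0.22 for pan-neuronal and for other interneuron subclass markers and -0.59 for endothelial markers.

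Markers of other cells moved between the same groups. In susceptible against naive mice the 9 pan-neuronal markers had a median of 0.22, and of 0.20, 0.42 and -0.01 within slides 1, 2 and 3. Slc32a1 and Pvalb had the same order of slides, whereas for Gad1, Gad2, Reln, Dlx1 and Lhx6 the difference was lowest on slide 1. The mean level of the 9 pan-neuronal markers ran from 4.74 to 5.20 over susceptible, 4.99 to 5.14 over resilient and 4.68 to 4.91 over naive mice. In susceptible against naive mice 0 of them were called in either fit, where 2.6% of all genes were called without a block and 15.3% with slide as a block. Markers of striatal projection neurons, which are themselves GABAergic, had a median of 0.22 over 8 genes, with 0 rising and 1 falling without a block, and mean levels of 0.13 to 0.33, 0.08 to 0.36 and 0.01 to 0.36 in susceptible, resilient and naive mice. Medians were -0.11 for 12 cortical excitatory neuron markers, -0.36 for 9 astrocyte, -0.43 for 6 oligodendrocyte, -0.59 for 4 endothelial, -0.84 for 5 pericyte or smooth muscle and -1.05 for 7 meningeal fibroblast markers, and 1.63 for 4 erythroid markers. In resilient against naive mice, which share the naive mice, the medians were 0.28 for pan-neuronal, -0.13 for cortical excitatory neuron, -0.41 for astrocyte, -0.11 for oligodendrocyte, -0.55 for endothelial, -0.72 for pericyte or smooth muscle, -1.27 for meningeal fibroblast and 0.95 for erythroid markers. Cajal-Retzius cells also make reelin; 3 of their 6 markers were tested, with a median of 0.16, and Lhx5 and Nhlh2 were above background on 0 arrays. The part of these other cells in the levels of the 7 genes was not tested.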

How the data were processed

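RNA (35 ng per array) from 1.5 mm punches of mPFC was labelled with Cy3, per the labels' protocols. The linear intensities deposited for each array were extracted with Agilent Feature Extraction 11.0.1.1, per the file headers, and the background-subtracted processed signal, not scaled between arrays, was used. The authors' deposited value table holds log2 values of the same arrays and differed from log2 processed signal by 1 constant per array (SD of the rest at most 0.00656); it served as an alternative.

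From the 62976 spots per array, 3671 controls and 104 to 184 outlier spots were left out. Log2 signal minus the array's 75th percentile was averaged per probe, and a probe was kept if every array of some group read it well above background. Genes were named by RefSeq accession, and the brightest probe stood for a gene. The fit (limma 3.58.1, R 4.3.3) used all 14 arrays, was tested on simulated data, and was repeated with slide as a block. Correlations used 100000 permutations (scipy 1.17.1). Pathway genes are named if called in any comparison in either fit, plus the 2 per list with the smallest p in susceptible against naive mice; the 2 most alike genes are named per gene. The values of 1 pathway gene are not reported here. The 7 genes and all lists were chosen with earlier results of these data known.

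The labels mention independent experiments without saying which mouse belongs to which. Nor do they say that the replicate numbers pair the mice, so the numbers were not used as pairs in the main fit. Same-numbered mice of different groups deviated together with r from -0.38 to 0.71, over 0.1 in 8 of 11 pairs, and some of these pairs shared a slide. The number of arrays limits the precision.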

Additional observations from a re-analysis of the deposited data

How the results depend on the processing

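None of the 7 genes was called in 12 of 14 alternatives in susceptible against naive mice; with slide as a block 1 was (Gad1) and with scan day as a block 2 were (Gad1 and Lhx6), and leaving out 1 mouse, with or without the slide block, gave 0 to 2. In the other comparisons 0 were called in all alternatives. The replicate block used numbers that the labels do not describe as pairs. It called 0 (Gad1 0.38, limma adjusted p = 0.0572) in susceptible against naive mice. It moved the count over all genes to 1707, against 376, in susceptible and to 728, against 21, in resilient against naive mice. Over all genes the count in susceptible against naive mice also moved to 2211 with slide, 2500 with scan day, 580 with quantile normalization, 30 with median centring, 112 with normexp, 35 with no filter, 66 with only the groups compared, 1463 with brightness and 1939 on scan day 1. With median centring 27 of these 30 were higher in susceptible mice, against 237 of 376. In resilient against naive mice it moved to 511 with slide, 1463 with scan day, 40 with quantile normalization, 63 with trend and robust eBayes, 1103 with brightness, 1627 on scan day 1 and 0 with median centring, normexp, no filter or only the groups compared.

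Signs turned as follows; the cause was not tested. In susceptible against naive mice Lhx6 was 0.033 with array brightness as a covariate. In resilient against naive mice Slc32a1 was -0.11 with the mean of its probes; Pvalb was -0.27 with slide, -0.19 with scan day and -0.10 with replicate as a block and -0.11 on scan day 1 only; Lhx6 was 0.061 with quantile normalization, 0.035 with normexp and 0.15 with brightness. In susceptible against resilient mice, where no gene was called, Gad1 was 0.057 with median centring, 0.047 with normexp and 0.0013 in the authors' deposited table; Slc32a1 was 0.011 with slide, 0.059 with median centring, 0.038 with normexp, 0.20 with the mean of its probes, 0.0027 in the authors' deposited table and 0.058 on scan day 1; Pvalb was 0.32 with slide, 0.27 with scan day, 0.38 with replicate block, 0.054 with median centring, 0.069 with the mean of its probes, 0.11 with brightness and 0.33 on scan day 1; Reln was 0.052 with slide, 0.028 with scan day, 0.12 with replicate block and 0.079 on scan day 1; Dlx1 was 0.0083 with quantile normalization and 0.053 with median centring; Lhx6 was 0.038 with slide, 0.057 with scan day, 0.10 with replicate block and 0.043 on scan day 1. The r between genes was 0.037 for Gad1 and Pvalb, -0.455 for Gad2 and Lhx6 and -0.228 for Reln and Lhx6 on levels minus the slide mean, and -0.103 for Pvalb and Dlx1 with quantile normalization.

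Leaving out 1 mouse, with or without the slide block, turned signs within these ranges: in resilient against naive mice Dlx1 -0.024 to 0.26, Lhx6 -0.47 to 0.087, Pvalb -0.51 to 0.38 and Pthlh -0.33 to 0.065; in susceptible against naive mice Pvalb -0.022 to 0.28; in susceptible against resilient mice Gad1 -0.11 to 0.11, Gad2 -0.13 to 0.045, Slc32a1 -0.12 to 0.11, Pvalb -0.25 to 0.58, Reln -0.25 to 0.18, Dlx1 -0.14 to 0.14 and Lhx6 -0.36 to 0.17. The brightness covariate and the scan-day-1 subset were chosen after seeing the data.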
